A study of Mus musculus with 19 samples.

Results

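The proteasome genes were examined in epididymal white adipose tissue (eWAT) of mice that had been fed diets differing in fat and Mg2+ content. Genes were taken by name and biotype: a protein-coding gene whose symbol begins with Psm, then a letter from a to g and a number. The rule found 50 of the 24237 genes used, and 49 of these encode parts, activators, an inhibitor or assembly factors of the proteasome. The remaining gene, Psmc3ip, carries the name of a subunit that its product was found to bind, and encodes a factor of meiotic recombination. A further 3 names that fit, Psmb5-ps, Psmb6-ps and Psmb7-ps2, are not protein coding and were left out.

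All mice were male C57BL6/J, were 9 to 10 weeks old when the diets began and were fed them for 17 weeks. NormMg-LFD mice (n = 4) had a low-fat diet (LFD, 10% of energy as fat) with 0.21% MgO by weight, and LowMg-LFD mice (n = 5) the same fat content with 0.03% MgO. NormMg-HFD mice (n = 5) had a high-fat diet (HFD, 60% of energy as fat) with 0.21% MgO, and LowMg-HFD mice (n = 5) that fat content with 0.03% MgO. Each library came from 1 mouse and held 12986441 to 13027028 reads, of which 86.12% to 90.41% mapped. Expression was read as FPKM, which is normalised to transcript length and to the mapped reads of a library, so levels are per length and can be compared between genes.

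The 26S proteasome degrades proteins tagged with ubiquitin. Its 20S core is a barrel of stacked alpha and beta rings with the proteolytic sites inside, and its 19S cap recognises, unfolds and feeds in the substrate. In cells exposed to interferon, and in many leukocytes, the catalytic beta subunits Psmb6, Psmb7 and Psmb5 are replaced by Psmb9, Psmb10 and Psmb8, which form the immunoproteasome and favour peptides for MHC class I. In adipose tissue the proteasome has been studied for its part in adipocyte differentiation, in thermogenic fat and in the inflammation of obesity.

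A few libraries stood apart. LowMg-HFD replicate 4 had a summed FPKM of 2240 over 7 epididymis and testis genes, against 0.94 to 499.7 in the other 18 mice, and nearly all of it came from the sperm genes Prm2 (871 FPKM), Prm1 (696 FPKM), Tnp1 (528 FPKM) and Odf1 (144 FPKM). NormMg-LFD replicate 3 had a summed FPKM of 1387 over 9 exocrine pancreas genes, against 1.13 to 3.41 in the other 18 mice, of which LowMg-HFD replicate 4 had 1.97. The adipocyte markers fitted the labelled tissue, with Adipoq at 1072 to 2569 FPKM and Plin1 at 540 to 1189 FPKM over the mice. NormMg-HFD replicate 3 was the highest of 19 mice in 20 of the 50 members and in 18.01% of the genes tested. LowMg-HFD replicate 4 was the highest in 10 members and in 11.4% of the genes tested, and NormMg-LFD replicate 4 in 2 members and 12.63%. The member counts are over all 50, tested or not. Psma8 and Psmc3ip, among the 10, and Psmb11, among the 2, were not tested. LowMg-LFD replicate 1 was the lowest in 2 members and in 22.83% of the genes tested. The cause of these positions was not tested.

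Most members were expressed at a like level. The 14 constitutive 20S genes had means over the 19 mice from 46.3 FPKM (Psma5) to 102 FPKM (Psmb6), and the 17 genes of the 19S cap from 38.7 FPKM (Psmd12) to 93.2 FPKM (Psmd8). The immune subunits were lower than their counterparts, with means of 45.3 FPKM for Psmb8, 41.4 FPKM for Psmb10 and 19.2 FPKM for Psmb9. The assembly factors were lower, from 8.37 FPKM (Psmg3) to 17.6 FPKM (Psmd5). Psme2, which forms the PA28 activator with Psme1, was the highest of all members at 178 FPKM, against 83.8 FPKM for Psme1. The mice of a group lay close together, since the median coefficient of variation of the 46 members tested was 8.08% to 9.41% in the 4 groups, against 12.84% to 15.26% for all genes tested. Among the 14 constitutive 20S genes it was 6.17% to 8.89%. These sets were not matched for expression level.

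**Figure D1:**
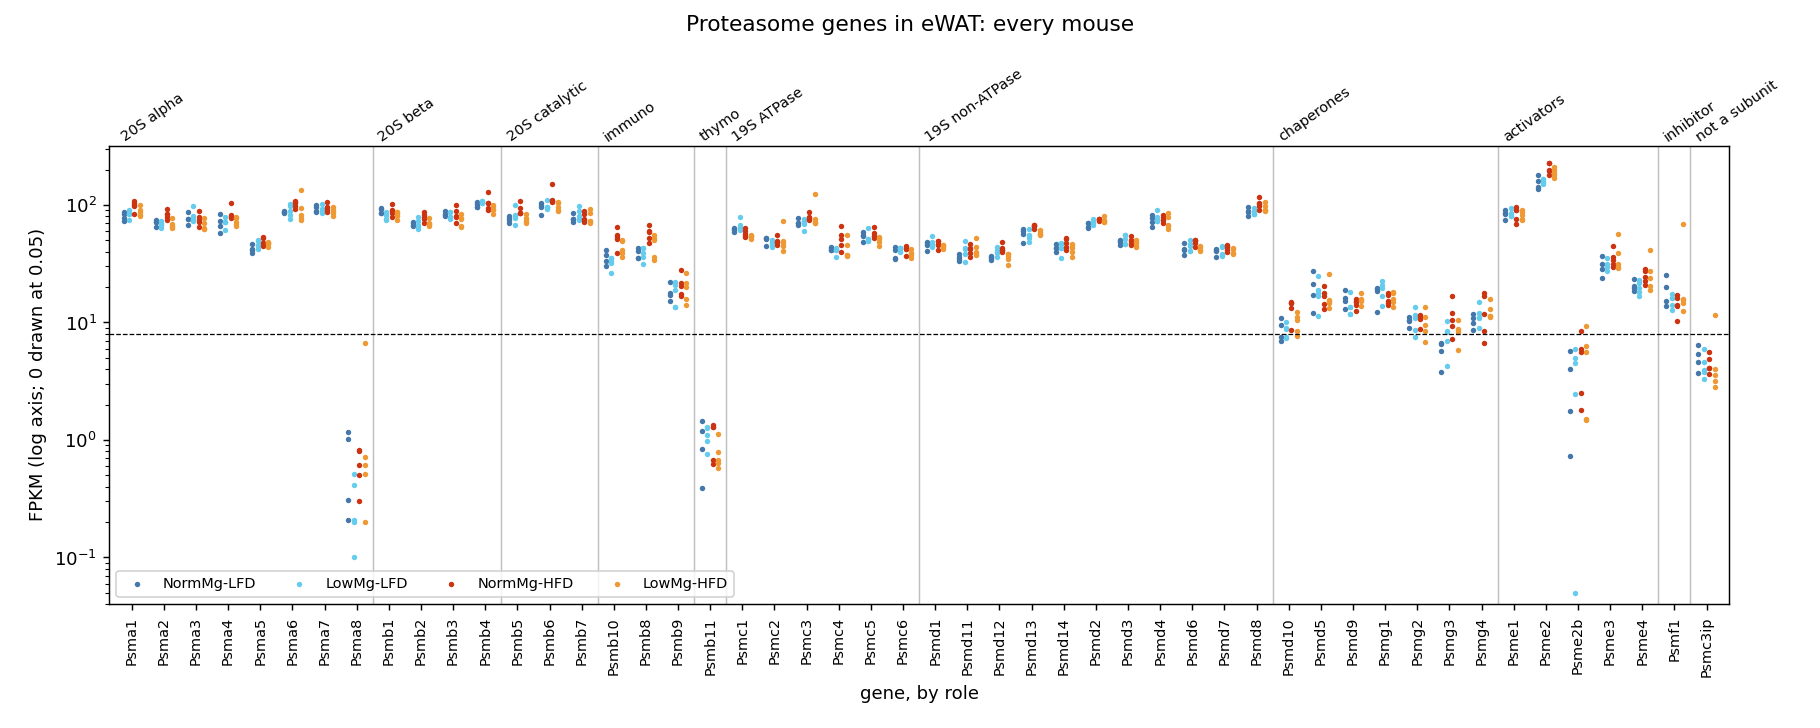
FPKM of the 50 members in every mouse, on a log axis, with genes on the horizontal axis grouped by role. Each point is 1 mouse and the colours are the 4 diets, the dashed line is the threshold of 8 FPKM, and Psma8, Psmb11, Psme2b and Psmc3ip lie below it in nearly all mice.

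A gene was tested where its mean was over 8 FPKM in a group and at least 4 mice of that group were over 8 FPKM. This left 8336 genes, 46 of them members. The 4 members that did not pass were Psma8, Psmb11, Psme2b and Psmc3ip. Psma8, an alpha subunit used in the testis, was at 0.1 to 1.16 FPKM in 18 mice and at 6.71 FPKM in LowMg-HFD replicate 4. Psmb11, the catalytic subunit of the thymoproteasome, was at 0.39 to 1.46 FPKM in all 19 mice. Psme2b, a close copy of Psme2, was at 0 to 9.3 FPKM, and reads that fit both may have been divided between them. Psmc3ip was at 2.83 to 6.42 FPKM in 18 mice and at 11.5 FPKM in LowMg-HFD replicate 4.

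The start regions of some members are shown because their genes were higher with fat at normal Mg2+ and hold a letter pattern of a factor tied to proteasome genes. Windows of 300 bases from RefSeq (GRCm38.p6), from 250 bases before a start to 50 bases after it, matched 42 members. Psma8, Psmb1, Psmb2, Psmb7, Psmc3, Psmd3, Psmd7 and Psmg2 had none. The antioxidant response element TGACNNNGC, which Nfe2l1 and Nfe2l2 recognise, lay on either strand in 6 of 42 members (14.3%) and in 14% of 27025 genes. The gamma-activated site TTCNNNGAA, which reads alike on both strands, lay in 3 members (7.1%) and in 9.6% of genes. The interferon response core GAAANNGAA lay in 7 members (16.7%) and in 9.8% of genes, and the CCAAT box in 15 members (35.7%) and in 41.1% of genes. GAAANNGAA and TTCNNNGAA may share bases. A match is a description of the letters and not of binding. The 250 bases before the start are printed 5′ to 3′ on the gene's strand, with the match in capitals, for Psmb5 (chr14:54617996-54618245, minus strand, match at -47 to -39), Psmb6 (chr11:70525107-70525356, plus strand, -9 to -1), Psmd12 (chr11:107479278-107479527, plus strand, -247 to -239) and Psmb8 (chr17:34197945-34198194, plus strand, -97 to -89). The first 3 hold TGACNNNGC, in Psmd12 on the opposite strand, and Psmb8 holds TTCNNNGAA. The starts are those of RefSeq, and the GENCODE annotation has others. Its span of Psmb8 (chr17:34197721-34201454) holds all 250 bases printed for that gene, which are thus within the gene there. Its spans of Psmb5 and Psmd12 hold the last of the bases printed for them.
Psmb5: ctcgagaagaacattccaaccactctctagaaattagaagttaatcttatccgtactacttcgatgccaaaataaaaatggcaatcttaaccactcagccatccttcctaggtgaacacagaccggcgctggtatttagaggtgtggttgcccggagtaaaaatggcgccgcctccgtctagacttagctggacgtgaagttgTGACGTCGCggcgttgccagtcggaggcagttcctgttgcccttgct
Psmb6: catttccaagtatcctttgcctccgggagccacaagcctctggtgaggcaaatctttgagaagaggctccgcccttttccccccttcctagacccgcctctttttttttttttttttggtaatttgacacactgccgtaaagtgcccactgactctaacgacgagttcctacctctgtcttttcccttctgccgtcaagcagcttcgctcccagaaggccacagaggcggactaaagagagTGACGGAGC
Psmd12: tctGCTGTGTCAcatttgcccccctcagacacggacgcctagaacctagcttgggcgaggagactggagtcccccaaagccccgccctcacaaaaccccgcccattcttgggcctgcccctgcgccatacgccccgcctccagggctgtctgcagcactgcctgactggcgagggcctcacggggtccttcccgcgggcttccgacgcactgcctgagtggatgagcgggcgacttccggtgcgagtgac
Psmb8: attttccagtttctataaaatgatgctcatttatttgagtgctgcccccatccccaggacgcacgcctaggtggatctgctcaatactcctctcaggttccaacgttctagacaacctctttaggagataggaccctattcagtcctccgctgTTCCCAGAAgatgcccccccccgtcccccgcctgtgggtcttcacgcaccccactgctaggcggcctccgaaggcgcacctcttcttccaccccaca

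The high-fat diet was compared with the low-fat diet at normal Mg2+ first. Of the 46 members tested, 12 were higher in NormMg-HFD than in NormMg-LFD mice and 0 were lower. They were 3 alpha subunits, 2 constitutive and 2 immune catalytic subunits, 2 subunits of the cap, 2 assembly factors and 1 activator. This share, 26.1%, was near that of all genes tested, of which 24.6% were higher and 12.8% lower. The median log2 difference of the members was 0.15, against 0.07 for all genes. Differences are of log2(FPKM + 1), with the SE of limma's fit to all 4 groups, and p values are adjusted by Benjamini-Hochberg over the genes tested.

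Among the immune subunits, Psmb8 and Psmb10 were higher. Psmb8, the immune form of the chymotrypsin-like subunit Psmb5, had 43.4, 35.3, 40.6 and 35.04 FPKM in the NormMg-LFD mice and 47.8, 67.5, 58.9, 51.9 and 60.5 FPKM in the NormMg-HFD mice. All 5 NormMg-HFD mice lay above all 4 NormMg-LFD mice, and the log2 difference was 0.55 ± 0.15 (adjusted p = 0.00551, limma). Psmb10, the immune form of the trypsin-like Psmb7, had 41.5, 37.8, 33.1 and 30.1 FPKM in the NormMg-LFD mice and 38.7, 55.7, 65.1, 51.7 and 53.5 FPKM in the NormMg-HFD mice. The groups overlapped in 1 NormMg-HFD mouse, and the log2 difference was 0.55 ± 0.14 (adjusted p = 0.00441). Psmb9, the immune form of the caspase-like Psmb6, did not pass the test. It had 15.2, 22.2, 17.1 and 17.97 FPKM in the NormMg-LFD mice and 20.6, 27.9, 21.6, 17.5 and 17.0 FPKM in the NormMg-HFD mice. The groups overlapped widely, with a log2 difference of 0.19 and a 95% interval from -0.20 to 0.58 (adjusted p = 0.453).

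Psmb8 (chr17:34197721-34201454) and Psmb9 (chr17:34181987-34187764) both lie in the MHC, in opposite orientations, and Psmb10 (chr8:105935735-105938444) lies elsewhere, by GENCODE gene spans on GRCm38. In that annotation an antisense gene, Gm20496, covers 14.7% of the exon bases of Psmb8 and the peptide transporter gene Tap1 covers 5.8% of those of Psmb9. Mir686 covers 12.1% of those of Psmb5 on the same strand, and Nek6 covers 11.8% of those of Psmb7 on the other. The strand setting of the quantification is not given in the sources used here, so reads of such overlaps cannot be told apart.

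Of the 3 constitutive counterparts, 2 also passed the test, with smaller differences. Psmb5 kept its call without 4 of 9 mice and under 3 of 9 other settings, and Psmb6 without 3 and under 2. Psmb5 had 80.8, 73.9, 70.7 and 77.9 FPKM in the NormMg-LFD mice and 85.6, 85.4, 108.9, 93.9 and 84.8 FPKM in the NormMg-HFD mice. The groups did not overlap, and the log2 difference was 0.27 ± 0.10 (adjusted p = 0.0446). Psmb6 had 96.1, 99.99, 104.8 and 82.1 FPKM in the NormMg-LFD mice and 108.8, 105.0, 152.1, 109.6 and 108.6 FPKM in the NormMg-HFD mice. These groups did not overlap either, and NormMg-HFD replicate 3 stood far above the rest of its group (log2 difference 0.28 ± 0.11, adjusted p = 0.0476). Psmb7 was at 71.8 to 85.6 FPKM in the NormMg-LFD mice and 72.2 to 89.1 FPKM in the NormMg-HFD mice, with a log2 difference of 0.03 ± 0.10 (adjusted p = 0.859).

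Of the alpha ring, which gates the core, Psma1, Psma2 and Psma5 were higher, with log2 differences of 0.29, 0.21 and 0.21 (adjusted p = 0.0119, 0.036 and 0.0426). Psma1 kept its call without each of 9 mice and under 7 of 9 other settings, Psma2 without 3 and under 6, and Psma5 without 2 and under 4. Of the 4 beta subunits without a proteolytic site, 0 passed the test, and Psmb2 had the largest difference at 0.18 (adjusted p = 0.0928). In the cap, 0 of the 6 ATPases, which unfold the substrate, passed the test. Of the 11 other cap subunits, Psmd12 and Psmd13 were higher by 0.26 and 0.23 (adjusted p = 0.0166 and 0.0407). Psmd12 kept its call without 8 of 9 mice and under 7 of 9 other settings, and Psmd13 without 3 and under 3. Psmd13 shares 10.1% of its exon bases with Sirt3 on the other strand.

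Of the 4 activators tested, Psme2 passed the test. It had 161, 138, 142 and 180 FPKM in the NormMg-LFD mice and 199, 181, 227, 193 and 226 FPKM in the NormMg-HFD mice. All 5 NormMg-HFD mice lay above all 4 NormMg-LFD mice, the closest by less than 1 FPKM, and the log2 difference was 0.40 ± 0.09 (adjusted p = 0.00217). Its partner Psme1 had 84.8, 74.5, 91.0 and 84.2 FPKM in the NormMg-LFD mice and 96.9, 89.9, 90.5, 68.9 and 75.9 FPKM in the NormMg-HFD mice. The NormMg-HFD mice lay on both sides of the NormMg-LFD mice, with a log2 difference of 0.01 and a 95% interval from -0.20 to 0.21 (adjusted p = 0.97). Psme3, the nuclear activator PA28 gamma, and Psme4, the activator PA200, differed by 0.22 ± 0.17 and 0.25 ± 0.17, and did not pass the test (adjusted p = 0.344 and 0.251). Psmf1, an inhibitor of the 20S core, differed by -0.34 ± 0.34 (adjusted p = 0.464).

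Of the 7 assembly factors, Psmg3 and Psmd10 were higher. Both passed the filter through the HFD groups alone, where they were high, so they are counted among the 12 with that limit, and both were also called with no filter. Psmg3, a chaperone of the alpha ring, had 6.57, 5.77, 6.65 and 3.79 FPKM in the NormMg-LFD mice and 12.03, 10.5, 16.8, 9.34 and 7.17 FPKM in the NormMg-HFD mice. The groups did not overlap, and the log2 difference was 0.84 ± 0.23 (adjusted p = 0.00784). Psmd10, or gankyrin, a chaperone of the cap's ATPase ring, had 9.45, 7.51, 10.9 and 6.99 FPKM in the NormMg-LFD mice and 14.6, 8.65, 14.9, 14.5 and 13.3 FPKM in the NormMg-HFD mice. Of the NormMg-HFD mice 4 lay above all NormMg-LFD mice and 1 within them, and the log2 difference was 0.54 ± 0.17 (adjusted p = 0.0151). Psmg3 shares 9.7% of its exon bases with Gm26938 on the same strand. The other 5 assembly factors (Psmd5, Psmd9, Psmg1, Psmg2 and Psmg4) did not pass the test.

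How many members were called turned on the scaling and on single mice, while Psmb8 and Psmb10 kept their calls under all 9 other settings and without each of 9 mice. Centring each mouse on its median moved the median log2 difference of all genes from 0.07 to -0.03. Of the 46 members 5 were then higher (Psmb8, Psmb10, Psmd10, Psme2 and Psmg3) and 0 lower, and of 8336 genes 1580 and 1572. With quantile normalisation 3 members were higher (Psmb8, Psmb10 and Psmd10), as were 1499 of 8336 genes. Without NormMg-LFD replicate 3, the mouse with pancreas genes, 7 members were higher, without NormMg-HFD replicate 3 also 7, and without NormMg-LFD replicate 5, 6. In these fits, in that order, 1718, 1806 and 1817 of 8336 genes were higher. A fit of 18 mice left out LowMg-HFD replicate 4 and also used a lower filter, log2(FPKM + 1) over 3, which kept 8808 genes. In it 13 members were higher, with Psmd8 added, against 24.9% of genes.

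Of the members, 8 of 46 (17.4%) had no overlap between NormMg-HFD and NormMg-LFD mice and were higher with fat, against 21.5% of all genes tested. These were Psma6, Psmb5, Psmb6, Psmb8, Psmd2, Psmd12, Psme2 and Psmg3, of which Psma6 and Psmd2 did not pass the limma test. Leukocyte markers moved with the diet in the same samples. The summed FPKM of 11 leukocyte genes was 162 to 226.5 in NormMg-LFD and 716 to 1139 in NormMg-HFD mice, and all 7 of them that were tested were higher, by a median log2 difference of 2.00. The lymphocyte genes of the list, Cd3e, Cd3g, Cd79a and Ms4a1, were not tested. The summed FPKM of 8 adipocyte genes was 17745 to 24039 in NormMg-LFD and 13317 to 17973 in NormMg-HFD mice. Of these 8 genes 5 were lower, Cfd from a mean of 5724 to 412 FPKM, and Lep was higher, from 354 to 1138 FPKM. In bulk tissue fewer cells of a type and less RNA per cell cannot be told apart, and the part of these shifts in the subunit levels was not tested.

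**Figure D2:**
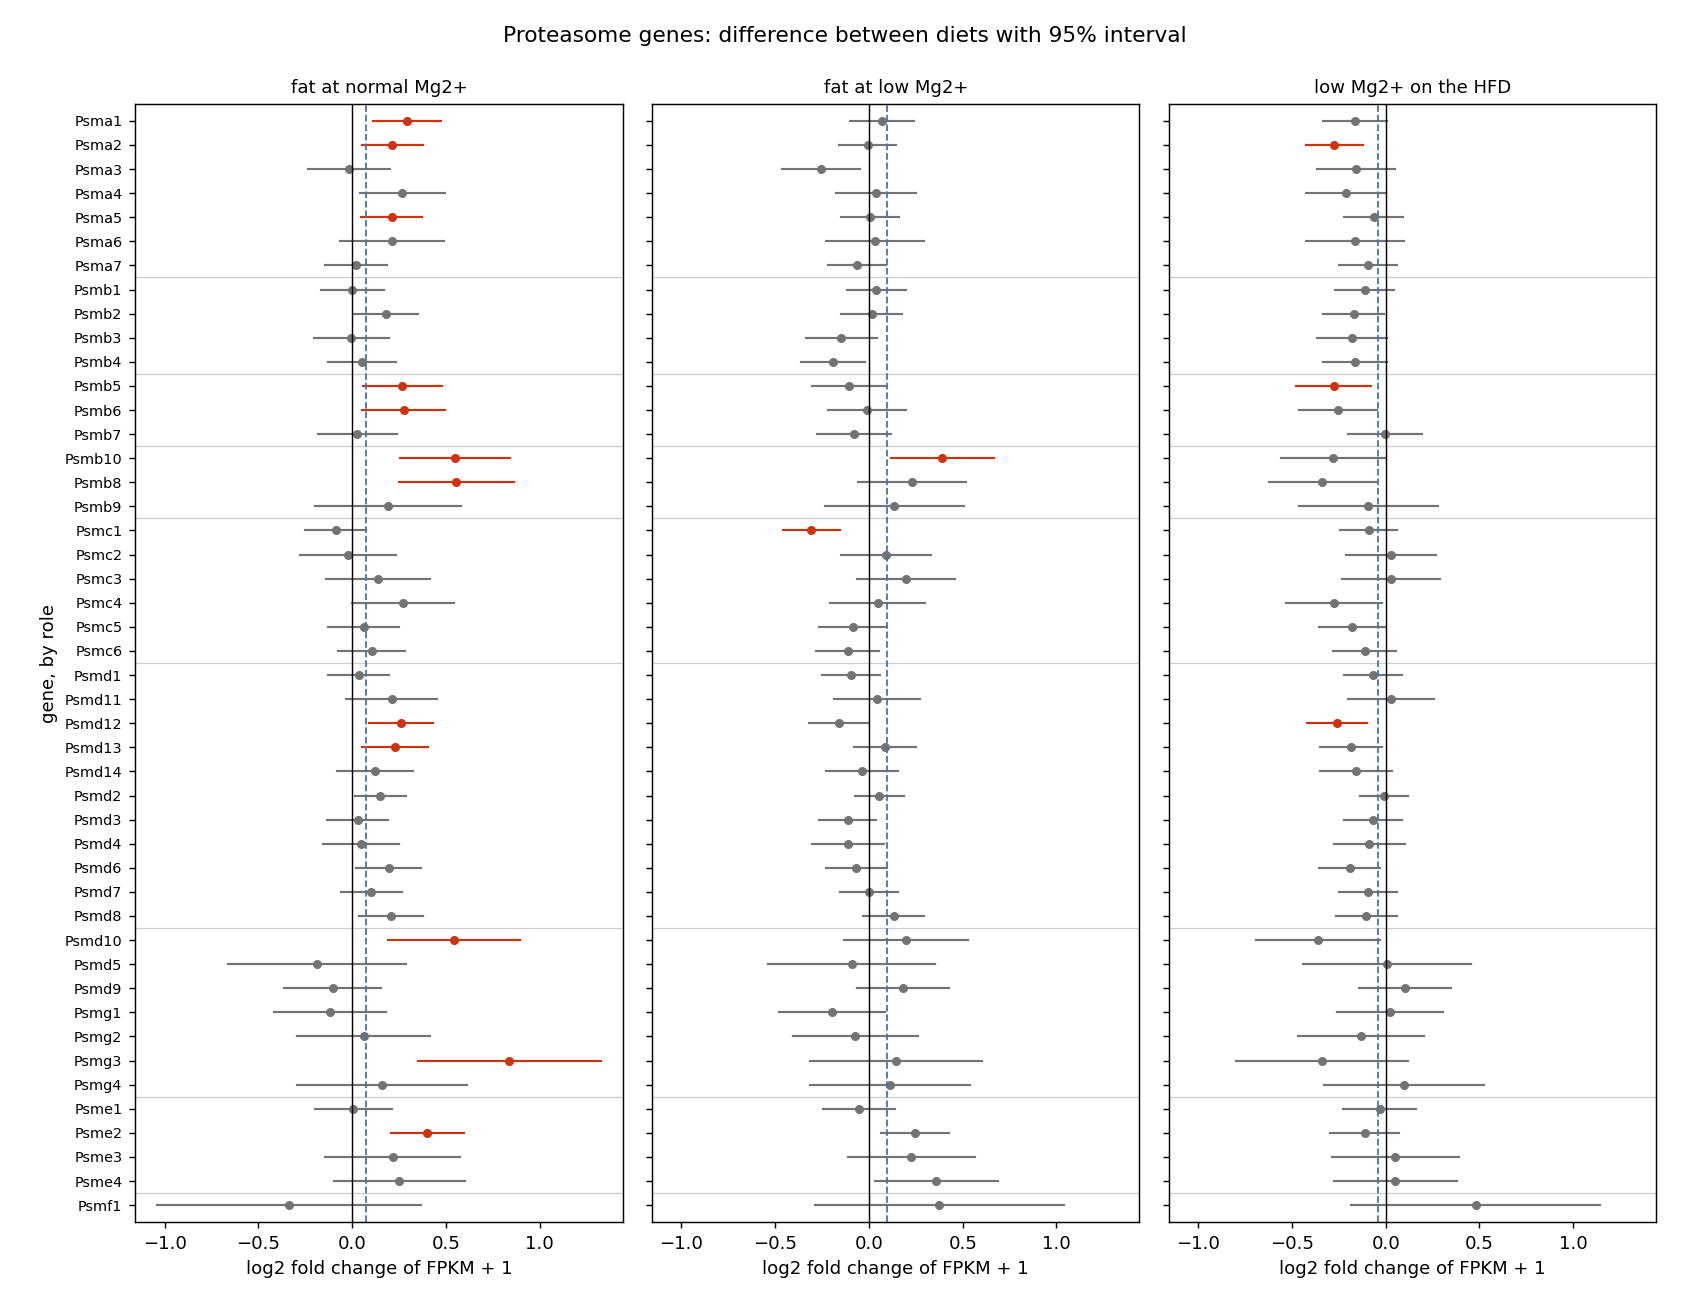
Log2 difference of FPKM + 1 for the 46 members tested (points) with 95% intervals (lines), by role, in 3 comparisons. Red marks an adjusted p under 0.05 and the dashed line the median of all genes: 12 members are red for fat at normal Mg2+, all to the right, 2 for fat at low Mg2+ and 3 for low Mg2+ on the HFD, all to the left.

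At low Mg2+ the fat comparison named few members. Psmb10 was higher in LowMg-HFD than in LowMg-LFD mice and Psmc1, an ATPase of the cap, was lower, against 12.4% of genes higher and 3.51% lower. Psmb10 had 26.3, 31.9, 33.6, 35.3 and 35.7 FPKM in the LowMg-LFD mice and 49.97, 49.8, 38.8, 35.9 and 41.4 FPKM in the LowMg-HFD mice. The groups did not overlap, but the closest mice were within 1 FPKM, and the log2 difference was 0.39 ± 0.13 (adjusted p = 0.0499). Psmc1 had 79.1, 66.9, 61.7, 64.1 and 65.0 FPKM in the LowMg-LFD mice and 54.3, 53.5, 51.6, 55.9 and 54.9 FPKM in the LowMg-HFD mice. All LowMg-HFD mice lay below all LowMg-LFD mice, and the log2 difference was -0.31 ± 0.07 (adjusted p = 0.00753). Psmc1 kept its call without each of 10 mice and under all 9 other settings, and Psmb10 without 2 of 10 mice and under 2 of 9 settings. In the fit of 18 mice the same 2 members were called, Psmb10 with an adjusted p of 0.0282, against 13.5% of genes higher and 3.52% lower.

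The split depended on the scaling. With the mice centred on their medians, which moved the median of all genes from 0.10 to -0.01, 0 members were higher and 4 lower (Psma3, Psmb4, Psmc1 and Psmd12), and quantile normalisation gave the same 4 names. Of 8336 genes 593 were higher and 531 lower with centring, and 549 and 530 with quantile normalisation. Psme2 had a log2 difference of 0.25 ± 0.09 without overlap of the groups (adjusted p = 0.0633), Psmb8 one of 0.23 ± 0.14 (adjusted p = 0.277) and Psmb9 one of 0.14 ± 0.18 (adjusted p = 0.654). The 14 constitutive 20S genes had a median of -0.01, against 0.10 for all genes. Cell type markers differed in this comparison too. Of the 7 leukocyte genes tested 5 were higher (6 in the fit of 18 mice), with sums of 131 to 307.7 FPKM in LowMg-LFD and 243 to 656 FPKM in LowMg-HFD mice. Of the 8 adipocyte genes Lep was higher and Cfd and Pnpla2 lower (Cfd alone in the fit of 18 mice). Their part in the subunit values was not tested.

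Low Mg2+ on the high-fat diet was compared with normal Mg2+ next. When Mg2+ was low, 3 of the 46 members (6.5%) were lower and 0 were higher, against 12.9% of genes lower and 5.58% higher. All 14 constitutive 20S genes had a negative log2 difference, with a median of -0.17, against -0.04 for all genes, but only Psma2 and Psmb5 passed the test. These 14 shared the NormMg-HFD mice with the fat comparison at normal Mg2+, and NormMg-HFD replicate 3 was the highest of 19 mice in 9 of them, Psma2 and Psmb5 included.

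Psma2, a subunit of the alpha ring, had 83.8, 79.6, 91.6, 83.4 and 74.7 FPKM in the NormMg-HFD mice and 64.6, 78.0, 66.2, 68.3 and 64.0 FPKM in the LowMg-HFD mice. The groups overlapped in 1 mouse of each, and the log2 difference was -0.27 ± 0.07 (adjusted p = 0.0142). Psmb5, the chymotrypsin-like subunit, had 74.3, 77.3, 69.6, 83.7 and 71.8 FPKM in the LowMg-HFD mice. None of these 5 reached the 84.8 FPKM of NormMg-HFD replicate 5, the lowest of its group, with a log2 difference of -0.28 ± 0.10 (adjusted p = 0.0491). Psmd12, a scaffold subunit of the cap, had 41.2, 40.1, 48.4, 41.6 and 43.3 FPKM in the NormMg-HFD mice and 34.98, 38.3, 30.9, 38.2 and 36.4 FPKM in the LowMg-HFD mice. The groups did not overlap, and the log2 difference was -0.26 ± 0.08 (adjusted p = 0.025). With the median-centred and with the quantile values 0 members were called. Of 8336 genes 849 and 878 were lower with these values, and 649 and 786 higher. Without NormMg-HFD replicate 3, or without LowMg-HFD replicate 3, only Psma2 was called, where 682 and 768 genes were lower. Psmb5 kept its call without 2 of 10 mice and under 2 of 9 other settings, Psmd12 without 8 and under 6, and Psma2 without all 10 and under 7. In the fit of 18 mice the 3 calls remained and Psma6 was added (log2 difference -0.31 ± 0.09, adjusted p = 0.0286), against 10.6% of genes lower. With that mouse left out and the filter kept at 8 FPKM, 4 members were lower as well.

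The immune subunits did not pass the test in this comparison. Psmb8 had 52.5, 55.8, 50.5, 36.1 and 33.8 FPKM in the LowMg-HFD mice, where 3 mice lay within the NormMg-HFD range and 2 below it (log2 difference -0.34 ± 0.14, adjusted p = 0.0938). Psmb10 differed by -0.28 ± 0.13 (adjusted p = 0.146) and Psmb9 by -0.09 ± 0.18 (adjusted p = 0.758). Of the activators Psme2 differed by -0.11 ± 0.09 (adjusted p = 0.396), and Psme1, Psme3 and Psme4 by -0.03, 0.05 and 0.05. Without LowMg-HFD replicate 4 the sign of Psme3 and Psme4 turned, to -0.11 and -0.12, and Psme1 was at 0.00. The number of members without overlap, 3 of 46 (Psmb5, Psmd12 and Psmd13, all lower), was 6.5%, against 9.56% of genes. The leukocyte sum was 243 to 656 FPKM in the LowMg-HFD mice, below the range in the NormMg-HFD mice, and all 7 leukocyte genes tested were lower (6 of 7 in the fit of 18 mice). The lymphocyte genes, which were not tested, did not share a direction. Mean Cd3g was 2.32 FPKM in NormMg-HFD and 2.75 FPKM in LowMg-HFD mice, Cd79a 2.06 and 2.12 FPKM, and Cd3e 2.02 and 1.57 FPKM. Of the 8 adipocyte genes 5 were higher, and their sum was 16839 to 20768 FPKM against 13317 to 17973 FPKM in the NormMg-HFD mice. Their part in the subunit values was not tested.

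On the low-fat diet, low Mg2+ gave no call among the members, and none among all genes (0 of 8336, limma, or 0%). Without adjustment, 547 genes and 0 members had a p under 0.05. The 46 log2 differences ran from -0.23 (Psmf1) to 0.35 (Psmg3), with a median of 0.02. The interaction of fat and Mg2+ named 0 members, against 1.25% of genes in 19 mice and 0.397% in 18 mice. Without adjustment 4 members, all negative, had a p under 0.05, as had 1698 of 8336 genes. In the fit of 18 mice it was 9 members, again all negative, and 1729 of 8808 genes. Psmd12 came closest, with a difference between the fat effects of -0.42 ± 0.11 (adjusted p = 0.0551). It was called without LowMg-HFD replicate 2. Its levels were 35.6 ± 1.35 FPKM (SD, n = 4) in NormMg-LFD, 40.0 ± 2.79 (n = 5) in LowMg-LFD, 42.9 ± 3.29 (n = 5) in NormMg-HFD and 35.7 ± 3.05 (n = 5) in LowMg-HFD mice, so the means of the LowMg-LFD and NormMg-HFD mice were the higher ones.

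The balance within each catalytic pair was then read in each mouse, which removes what both subunits share. The immune form took 31.4% ± 1.84 (SD, n = 4) of the Psmb10 and Psmb7 sum in NormMg-LFD, 28.2% ± 4.37 (n = 5) in LowMg-LFD, 39.9% ± 3.78 (n = 5) in NormMg-HFD and 35.4% ± 5.37 (n = 5) in LowMg-HFD mice. The log2 ratio of Psmb10 to Psmb7 was 0.54 higher in NormMg-HFD than in NormMg-LFD mice, a 1.45-fold difference, and all 5 NormMg-HFD mice lay above all 4 NormMg-LFD mice. By an exact two-sided permutation test p was 0.0159, and 0.19 after adjustment over the 12 pair tests. At low Mg2+ the ratio was 0.48 higher with fat (exact permutation p = 0.0476, adjusted p = 0.286). None of the 12 tests passed, and the smallest p that 5 against 4 mice allow is 0.00794. After adjustment over 12 tests a single pair could not pass even at that p, so the lack of a call decides nothing.

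The Psmb8 and Psmb9 pairs were read in the same way. Psmb8 took 33.7% ± 2.46, 32.2% ± 5.49, 38.5% ± 4.15 and 37.5% ± 5.92 of its sum with Psmb5 in NormMg-LFD, LowMg-LFD, NormMg-HFD and LowMg-HFD mice. The log2 ratio was 0.30 higher with fat at normal Mg2+ and 0.34 higher at low Mg2+ (exact permutation p = 0.119 and 0.19, adjusted p = 0.444 for both), and 2 of 5 and 3 of 5 HFD mice lay above all LFD mice. Psmb9 took 15.9% ± 2.45, 15.4% ± 3.57, 15.3% ± 3.40 and 16.8% ± 3.61 of its sum with Psmb6. Its log2 ratio differed by -0.08 with fat at normal Mg2+ and by 0.16 at low Mg2+ (exact permutation p = 0.762 and 0.579). Low Mg2+ on the HFD differed by -0.06 for Psmb8, 0.16 for Psmb9 and -0.28 for Psmb10 (exact permutation p = 0.817, 0.516 and 0.151). Without LowMg-HFD replicate 4 these were 0.05, 0.31 and -0.19, and with fat at low Mg2+ the ratios differed by 0.46 for Psmb8, 0.30 for Psmb9 and 0.58 for Psmb10. A p above the threshold in groups of this size does not show that the ratios were the same.

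**Figure D3:**
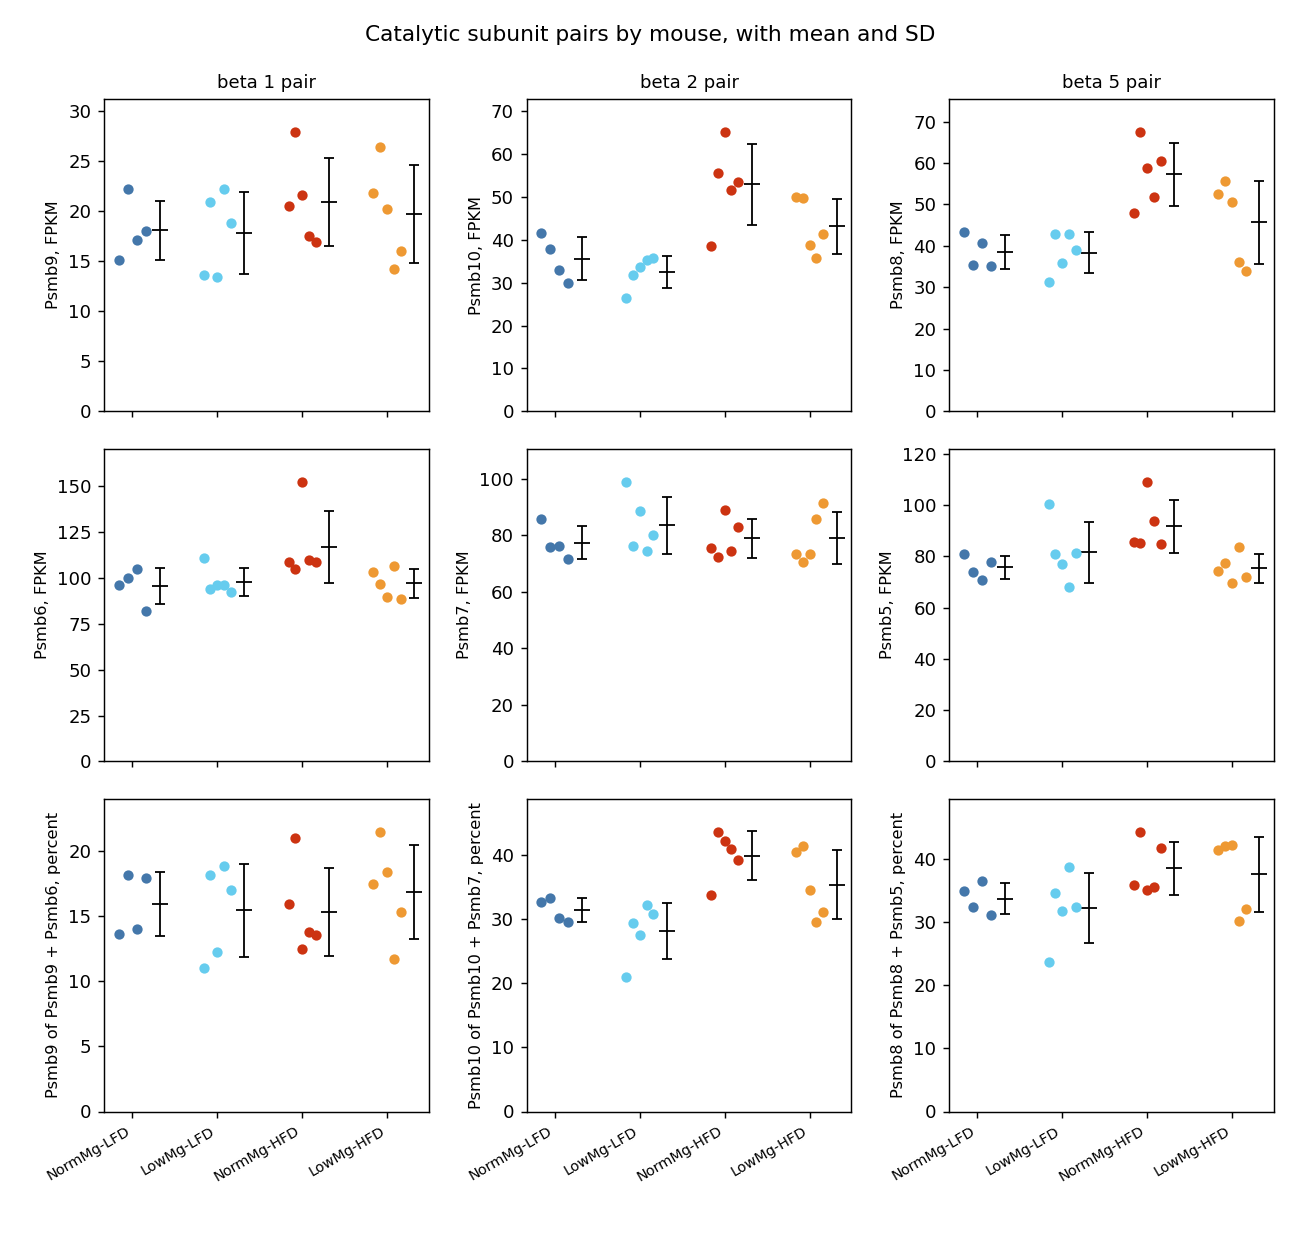
The immune subunit (top), its constitutive counterpart (middle), both in FPKM, and the percent of their sum that the immune form takes (bottom), for 3 pairs. Each point is 1 mouse, the bars are the mean and SD of a group, and the Psmb10 percent of all 5 NormMg-HFD mice lies above that of all 4 NormMg-LFD mice.

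LowMg-HFD replicate 4 changed what some members showed. It was the highest of 19 mice for Psma6, Psma8, Psmc2, Psmc3, Psmd2, Psmg2, Psme3, Psme4, Psmf1 and Psmc3ip, and the lowest for 0. Psmf1 was at 69.0 FPKM there, 4.51 times the median of the other 18 mice, which lay between 10.4 and 25.3 FPKM. Its log2 difference for low Mg2+ on the HFD was 0.48 ± 0.32 with this mouse and 0.05 ± 0.16 without it. Psme4, which acts in sperm development, was at 41.3 FPKM against 16.7 to 28.5, Psme3 at 57.0 FPKM against 23.7 to 44.8, and Psmc3, an ATPase of the cap, at 125 FPKM against 60.2 to 87.6. Psmb8, Psmb9 and Psmb10 were not raised in it, at 36.1, 14.2 and 35.9 FPKM. The next highest sums of the epididymis and testis genes were in NormMg-LFD replicates 5 and 4, at 499.7 and 208. The next highest Psmf1 levels were in the same mice, at 25.3 and 20.1 FPKM. Those of Psme4, Psme3 and Psmc3 were in other mice, NormMg-HFD replicates 5, 2 and 3, at 28.5, 44.8 and 87.6 FPKM. The part of such transcripts in the levels was not tested.

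**Figure D4:**
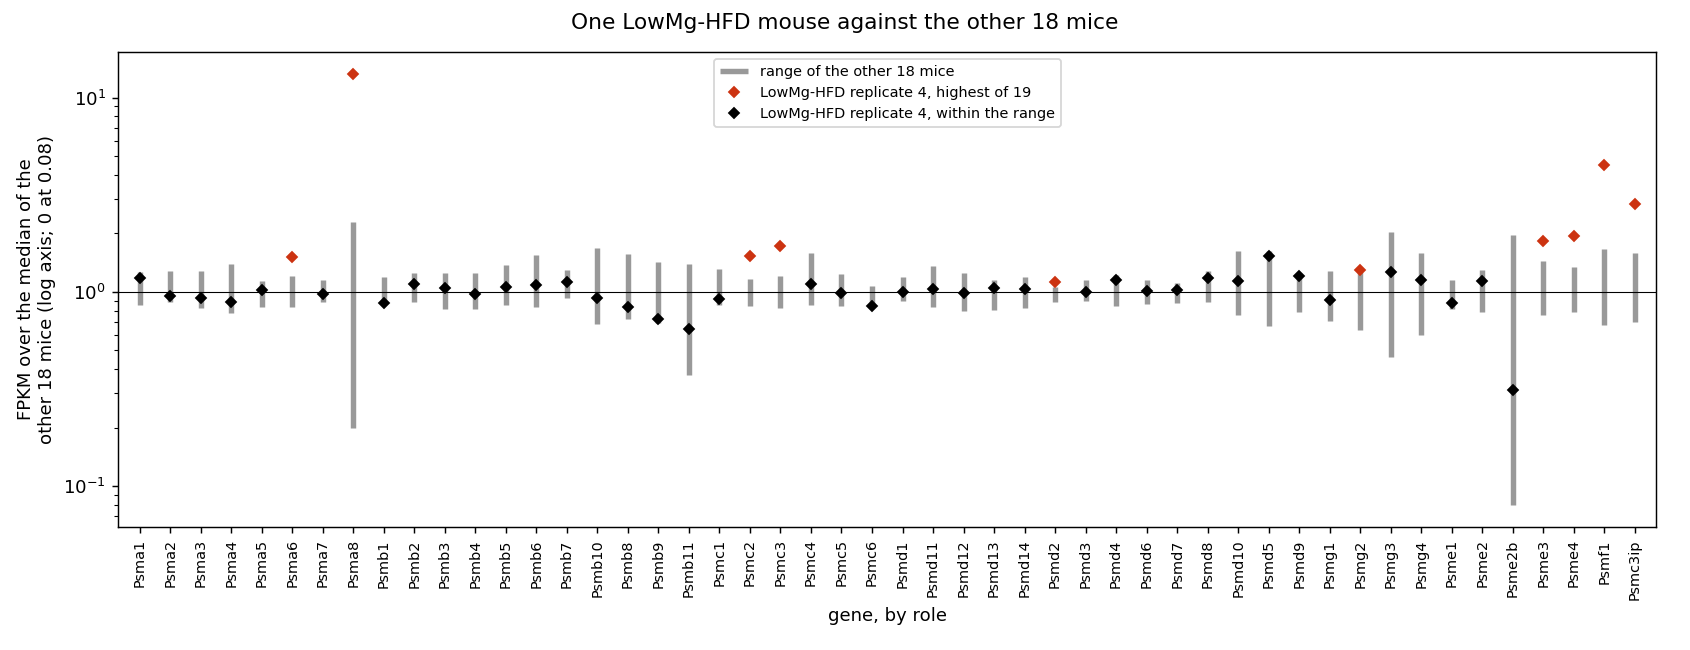
FPKM of each of the 50 members in LowMg-HFD replicate 4, over the median of the other 18 mice, on a log axis. Diamonds are that mouse, red where it is the highest of 19, grey bars are the range of the others, and Psma8, Psmf1 and Psmc3ip stand farthest above it.

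Genes that work with the proteasome were read as a list. Of 25 names, 21 were in the table, and all 21 were tested. With fat at normal Mg2+, 4 were higher and 2 lower, against 24.6% and 12.8% of all genes, and the median log2 difference was 0.10 against 0.07. In the fit of 18 mice 5 were higher and 3 lower, with the assembly factor Pomp (0.23) and AI314180 (-0.24) added. Nfe2l1, the factor that raises proteasome genes when proteasome activity falls, differed by 0.26 (adjusted p = 0.0172), and Ddi2, the protease that activates it, by 0.72 (adjusted p = 0.000535). The other higher genes were the cap subunit Shfm1 (0.43) and the ubiquitin receptor Sqstm1 (0.49). The lower ones were Ngly1 (-0.48), which removes sugars from Nfe2l1, and the cap's ubiquitin receptor Adrm1 (-0.18). With low Mg2+ on the HFD, Ddi2, Shfm1 and the deubiquitinase Usp14 were lower, with log2 differences of -0.40, -0.28 and -0.25, where 12.9% of all genes were lower, and in the fit of 18 mice only Usp14 was called. With fat at low Mg2+ Nfe2l1 was higher, and in the fit of 18 mice Ngly1 was also lower (-0.36, adjusted p = 0.028).

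Genes of peptide supply to MHC class I were read beside the immune subunits. With fat at normal Mg2+ the class I heavy chains H2-K1 and H2-D1 were higher, with log2 differences of 0.89 and 0.51 (adjusted p = 0.000193 and 0.00475, limma), where 24.6% of all genes were higher. Their light chain B2m and the loading factor Tapbp were higher as well, by 0.62 and 0.54 (adjusted p = 0.000626 and 0.000271). Tap1, whose product carries peptides into the endoplasmic reticulum, and Irf1, an interferon-induced factor, differed by 0.18 and 0.10 and did not pass the test (adjusted p = 0.501 and 0.589). Nor did Tap2, the partner of Tap1 (0.03), the peptide trimmer Erap1 (0.14) or the class I activator Nlrc5 (-0.06). With low Mg2+ on the HFD H2-K1 was lower (-0.45, adjusted p = 0.0395), a call that was lost in the fit of 18 mice. With fat at low Mg2+ Tapbp was higher, and in the fit of 18 mice B2m was too.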

How the data were processed

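Epididymal white adipose tissue of 19 mice was sequenced, 1 library per mouse. Per the study's methods the authors mapped single-end reads to the mouse transcriptome (GRCm38/mm10) with HISAT and Bowtie2, quantified genes with RSEM v1.2.31 and deposited FPKM values, which are normalised to transcript length and mapped reads. The authors also deposited the read count of each library and the percent of reads mapped. FPKM are not counts, so no count test was run, and precision was taken from the spread between mice. Reads with several positions (13.53% to 16.52%) were divided by RSEM, which can blur close copies.

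The table held 24238 genes, 1 of which had an unreadable value and was dropped. Groups came from the sample labels. Log2(FPKM + 1) of the genes past the filter was fitted in R 4.3.3 by limma-trend (limma 3.58.1), over 4 group means and 5 contrasts, two-sided, with Benjamini-Hochberg adjustment and a threshold of 0.05. Pair ratios were compared by exact permutation tests (scipy 1.17.1). The study's methods leave out a LowMg-HFD mouse for pancreatic tissue, without naming it. The 18-mouse fit leaves out LowMg-HFD replicate 4, which stood apart by its testis genes and not by pancreas genes, and takes log2(FPKM + 1) over 3 as its filter. The members, the gene lists and this choice were made with earlier results of these data known. Named are the catalytic, immune and activator genes, the members called in each class (at most 4 per comparison), the highest and lowest of a class, and those not tested; other members were named after their values were seen. Of the genes of class I peptide supply only some are named, and counts over that list are not reported here. The scripts were tested on simulated data.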

Additional observations from a re-analysis of the deposited data

Results flagged for a closer look

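Of 200 tests of a member within a group, 16 values lay farther from their group than Dixon's 95% critical value allows, where chance gives about 1 in 20. LowMg-HFD replicate 4 held 6 of them, all at the high end. These were Psma8 at 6.71 FPKM, Psmc2 at 73.6, Psmc3 at 124.6, Psmd5 at 25.8, Psmf1 at 69.0 and Psmc3ip at 11.5 FPKM. LowMg-LFD replicate 1 was high for Psmb6 (110.7 FPKM), Psmc5 (63.5 FPKM) and Psmd4 (90.6 FPKM). NormMg-HFD replicate 3 was high for Psma4 (104.3 FPKM) and Psmb6 (152.1 FPKM). Low values stood apart for Psmc2 in NormMg-LFD replicate 3 (44.8 FPKM), Psmg1 in NormMg-LFD replicate 5 (12.3 FPKM), Psmc4 in LowMg-LFD replicate 2 (35.8 FPKM), Psmd13 in NormMg-HFD replicate 4 (62.6 FPKM) and Psmd10 in NormMg-HFD replicate 2 (8.65 FPKM). Their causes were not tested.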

How the results depend on the processing

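For fat at normal Mg2+, 12 members and 3114 of 8336 genes were called. The median-centred values gave 5 members and 3152 genes, the quantile values 3 and 3195. Leaving out a mouse gave 6 to 12 members. For fat at low Mg2+, where 2 were called, both scalings gave 4, all lower. The filter at 1 FPKM, no filter, fitting only the groups compared, no intensity trend and the replicate block each gave 1, Psmc1, and leaving out a mouse gave 1 to 2. For low Mg2+ on the HFD, where 3 were called, both scalings gave 0, fitting only the groups compared gave 1 and leaving out a mouse gave 1 to 4. For low Mg2+ on the LFD every setting and mouse left out gave 0, and for the interaction leaving out a mouse gave 0 to 1 (Psmd12, without LowMg-HFD replicate 2). Replicate numbers were not taken as pairs. Deviations of same-numbered mice had a median correlation of 0.003, from -0.183 to 0.339 (27 pairs, 5 over 0.1). In other-numbered mice the median was -0.002, from -0.265 to 0.201 (108 pairs, 18 over 0.1), so the highest value was in a same-numbered pair. With the replicate block 9 members were called for fat at normal Mg2+ and 2 for low Mg2+ on the HFD. The pseudocount of 0.1 gave 12, 2 and 3 members. The cause of these changes was not tested.

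A single subunit pair could not pass the threshold after adjustment over 12 tests, so the tests of the ratios say nothing of their stability. Leaving out a mouse, the log2 ratio of Psmb10 to Psmb7 differed by 0.48 to 0.63 for fat at normal Mg2+ and by 0.35 to 0.58 at low Mg2+. Of the alternative values of the named members, 1806 kept their side of the threshold, 103 lost and 15 gained a call, and 0 changed sign while called.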
